A study of Mus musculus with 13 samples.

Results

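The genes described here encode the replication-dependent histones and some of their variants, 56 of the 54513 genes counted in mouse lung. They were chosen by symbol, as H1f, H2ac, H2bc, H3c and H4c genes and the older Hist names, without pseudogenes, and by a summed count above 130 over the 13 libraries. Of 70 genes with such a symbol, 56 passed: 7 encode linker histone H1, 11 H2A, 15 H2B, 11 H3 and 12 H4. The last genes inside the threshold were H3c15 with 131 counts, H2bc22 with 133 and H3c10 with 151, and the first outside it were H2ac7 with 104 and H2ac12 with 60. The filter on low counts kept 55 of the 56 for testing, and H2bc22 was the member it dropped. By the RefSeq gene records, 45 members lie on chromosome 13, 8 on chromosome 3, 1 on chromosome 15 and 1 on chromosome 6. H2bc24 had no match there and so was not linked to a GENCODE M21 transcript.

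Histones package DNA. A pair each of H2A, H2B, H3 and H4 forms the core of the nucleosome, and H1 binds the linker DNA between nucleosomes. Most histone genes lie in clusters and are transcribed in S phase, when new DNA has to be packaged. Their mRNAs end in a conserved stem-loop in place of a poly(A) tail, and the stem-loop binding protein governs their processing, translation and decay. Replacement variants such as H1.0, encoded by H1f0, are made outside S phase as well and carry poly(A) tails.

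The tissue was lung, fixed in formalin and embedded in paraffin, of C57Bl/6 males taken at day 21. The mice had an age of 7-8 weeks and received either bleomycin, a DNA-damaging drug used to model lung fibrosis, or saline. Total RNA was used, so that RNAs without a poly(A) tail were kept. Batch 1 bleomycin had 4 libraries (replicates 5 to 8), batch 2 bleomycin had 4 (replicates 1 to 4) and saline had 5 (replicates 1 to 5), all in batch 1. Batch 2 holds no saline library, so treatment and batch cannot be told apart in its comparison with saline, and both comparisons share the saline libraries. The labels do not tie the libraries to separate animals, so a p-value here reflects sample-to-sample spread, which may be technical.

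Libraries held 21727502 to 28885129 counts in the batch 1 bleomycin group, 6337147 to 12982422 in the batch 2 bleomycin group and 9527580 to 26043735 in the saline group. The labels of bleomycin replicate 8 conflict: control by its title, bleomycin by its treatment label and its library name. It is treated as bleomycin. Saline replicate 2 stood apart from the other saline libraries in these genes, and it was singled out after the values had been seen. Histone counts made up 0.0585% of its total, against 0.0417% to 0.0436% in the other 4, and it was the highest saline library for 45 of the 55 tested members (81.8%), against 24.8% of all tested genes. Counts of calls are given without each of these libraries, and values of named members where leaving out saline replicate 2 changed a call.

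The stem-loop that ends these mRNAs was found in the annotated transcripts of 37 of the 55 matched members (67.3%), against 51 of 21901 protein-coding genes (0.233%). It is shown here for members of each family that the results turn on, read 5′ to 3′ from GENCODE M21 transcripts (GRCm38) as DNA letters, with the stem and loop in capitals and the flanking bases in lower case.
H1f2: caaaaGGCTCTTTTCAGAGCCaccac
H2ac4: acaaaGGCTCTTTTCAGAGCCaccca
H2ac20: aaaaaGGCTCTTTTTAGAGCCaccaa
H2bc11: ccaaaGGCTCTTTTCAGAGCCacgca
H3c1: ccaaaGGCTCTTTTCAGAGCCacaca
H4c1: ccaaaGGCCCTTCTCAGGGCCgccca
H4c4: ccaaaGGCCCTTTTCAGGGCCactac
H4c8: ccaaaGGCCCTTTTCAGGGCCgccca
H4c14: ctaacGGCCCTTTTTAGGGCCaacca
The commonest core, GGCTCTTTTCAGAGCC, was found in 19 members and in no H4 gene. The H4 genes had their own cores, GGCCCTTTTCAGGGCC in 6 of them. Of the members without a match, 14 had an annotated transcript that stops at or close to the stop codon, so no stem-loop could be read from it. The annotated transcripts of H1f2, H4c1, H4c4 and H4c14 run on for 840, 108, 770 and 1257 bases past the stem-loop. Those of the other genes shown end within 100 bases of it.

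Summed over all members, histone counts averaged a larger share of the total in bleomycin lungs, and no test was made of this sum. Histone counts made up 0.0634% ± 0.0129 of all counts in batch 1 bleomycin lungs (SD, n = 4), 0.0652% ± 0.0221 in batch 2 bleomycin lungs (SD, n = 4) and 0.0456% ± 0.00721 in saline lungs (SD, n = 5). Saline replicate 2, at 0.0585%, lay within the range of both bleomycin groups (0.0490% to 0.0768% in batch 1 and 0.0452% to 0.0908% in batch 2), and the other saline libraries lay below both ranges. Levels are CPM on TMM-scaled totals from here on. They compare 1 gene between libraries and not different genes, since they are not per length.

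In batch 1 bleomycin against saline, 16 of the 55 tested members rose (29.1%, with 17.5% of all tested genes higher) and 2 fell (3.64%, with 13.4% of all tested genes lower), at a Benjamini-Hochberg adjusted p under 0.05 in edgeR's quasi-likelihood test. In both directions together the members' 32.7% was close to the 30.9% of all tested genes, so the share called does not set them apart. Whether the split into higher and lower calls differs from that of all genes was not tested. The median log2 change was 0.97 over the members, of which 43 were positive and 12 negative, beside 0.03 over all tested genes. In batch 2 bleomycin against saline, 12 members rose (21.8%, with 15.7% of all tested genes higher) and 3 fell (5.45%, with 13.2% of all tested genes lower), and the median log2 change was 0.93 beside -0.01. In both directions that was 27.3% of members against 28.9% of all tested genes. In batch 1, 9 members had all bleomycin libraries above all saline libraries (16.4%, with 14% of all tested genes), namely H1f5, H1f10, H2ac11, H2ac15, H2bc9, H2bc13, H2bc15, H3c1 and H3c3, and 0 had all below (with 11.3% of all tested genes). In batch 2, 2 had all above (3.64%, with 15.3% of all tested genes) and 3 had all below (5.45%, with 12.9% of all tested genes).

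The number of calls in batch 1 depended on single libraries. It was 17, 7, 6 and 6 without bleomycin replicates 5, 6, 7 and 8, and 8, 23, 9, 7 and 7 without saline replicates 1 to 5. Of all tested genes 24.9% to 31.6% were called when a single library was left out, while the members' share ran from 10.7% without replicate 8 (26.6% of all tested genes) to 41.8% without saline replicate 2 (26.4% of all tested genes). Without saline replicate 2, 8 members gained the call and 3 lost it in batch 1, and 8 gained it and none lost it in batch 2, where 23 members were then called (41.8%, with 25% of all tested genes). H1f5, H2ac15, H2bc11 and H2bc13 were called without each of the 13 libraries in turn, and the other 14 called members lost the call without at least 1 of them. With replicate 8 placed in saline, as its title has it, edgeR called 0 members (8 at an unadjusted p under 0.05) and 3.04% of all tested genes, 645 of 21237. In batch 2, 8 of the 15 called members were called without each library in turn, namely H1f2, H1f3, H1f5, H2ac15, H2bc13, H2bc21, H2bc24 and H4c17.

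**Figure D1:**
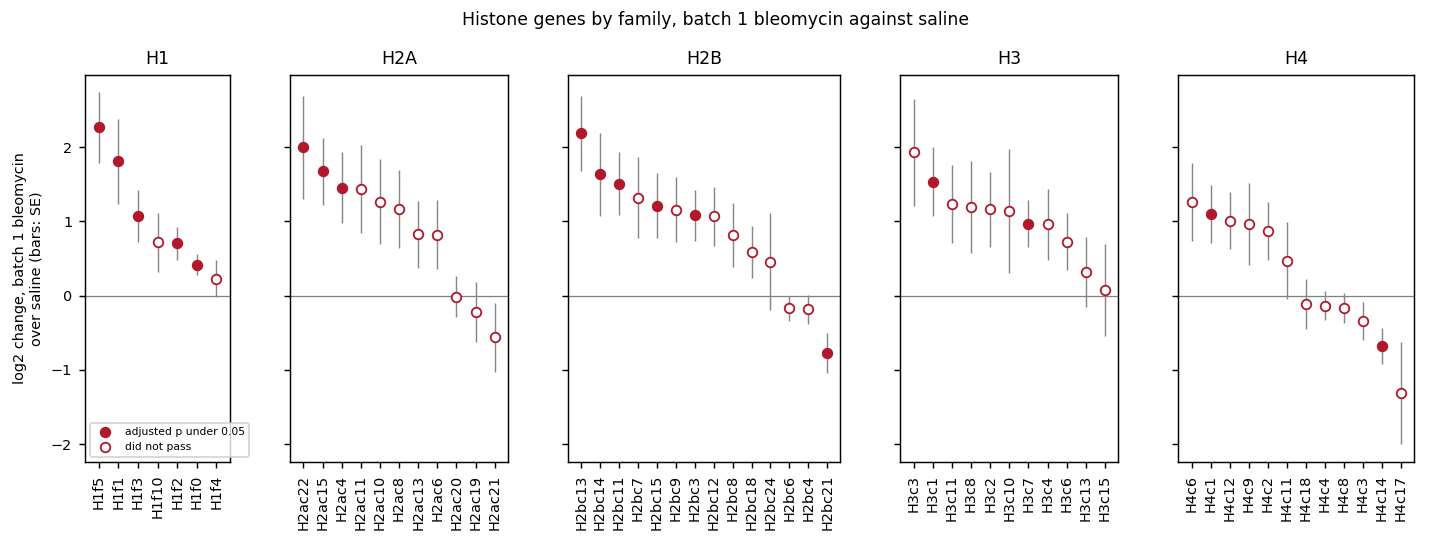
Log2 change of each of the 55 tested histone genes in batch 1 bleomycin over saline, by family, with the standard error as a bar; filled points passed an adjusted p under 0.05. All H1 and H3 points lie above 0, and the H4 family is divided, with 6 genes above and 6 below.

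Among the linker histones, 5 of 7 rose in batch 1 and none fell, with a median log2 change of 0.72. For this and each family below, 17.5% of all tested genes were higher and 13.4% lower in batch 1. H1f5 encodes the replication-dependent linker histone H1.5. It had 9.64, 11.5, 17.2 and 15.0 CPM in batch 1 bleomycin lungs, 21.9, 17.3, 5.41 and 6.15 CPM in batch 2 bleomycin lungs and 2.73, 6.03, 1.75, 2.51 and 1.32 CPM in saline lungs. All batch 1 bleomycin libraries were above all saline libraries, while batch 2 replicates 3 and 4 lay at or near the highest saline library. Its log2 change was 2.27 ± 0.47 in batch 1 (SE, edgeR adjusted p = 0.00313) and 2.19 ± 0.48 in batch 2 (SE, edgeR adjusted p = 0.00459).

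H1f2, a replication-dependent linker histone gene with a stem-loop, had 53.8, 84.8, 72.2 and 103 CPM in batch 1 bleomycin lungs, 132, 115, 76.7 and 81.3 CPM in batch 2 bleomycin lungs and 52.8, 64.6, 39.6, 47.1 and 37.4 CPM in saline lungs. In batch 1 the groups overlapped, since replicate 5 was within the saline range, and in batch 2 they did not. The log2 change was 0.70 ± 0.22 in batch 1 (SE, edgeR adjusted p = 0.0261) and 1.07 ± 0.22 in batch 2 (SE, edgeR adjusted p = 0.00285). H1f0, the gene of the replacement linker histone of differentiated cells, had 83.5, 88.9, 75.7 and 66.3 CPM in batch 1 bleomycin lungs, 98.6, 97.9, 65.3 and 69.7 CPM in batch 2 bleomycin lungs and 72.4, 60.5, 50.1, 53.8 and 57.8 CPM in saline lungs. Its groups overlapped in both batches because of saline replicate 1, and its log2 change was 0.42 ± 0.14 in batch 1 (SE, edgeR adjusted p = 0.0328) and 0.49 ± 0.14 in batch 2 (SE, edgeR adjusted p = 0.0154).

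H1f1 and H1f3, both replication-dependent, rose in batch 1 by log2 changes of 1.81 ± 0.57 and 1.07 ± 0.35 (SE, edgeR adjusted p = 0.0285 and 0.0372). Without single libraries their adjusted p ran to 0.0780 for H1f1 and 0.115 for H1f3, and that of H1f2 to 0.109 and of H1f0 to 0.104, H1f0 being at 0.0712 without saline replicate 2. In batch 2 that of H1f0 ran to 0.0656. H1f1 missed the threshold in batch 2 (log2 change 1.63 ± 0.58, SE, edgeR adjusted p = 0.0523). It passed there without saline replicate 2 (log2 2.23, edgeR adjusted p = 0.00302). H1f4 averaged 41.1 ± 14.2 CPM in batch 1 bleomycin lungs, 62.7 ± 18.6 CPM in batch 2 bleomycin lungs and 35.2 ± 7.83 CPM in saline lungs (SD, n = 4, 4 and 5). It did not pass in batch 1 (log2 change 0.23 ± 0.25, SE) and rose in batch 2 (log2 change 0.84 ± 0.25, SE, edgeR adjusted p = 0.0240, to 0.0848 without single libraries), and the difference between the batches did not pass (log2 0.61, edgeR adjusted p = 0.304). H1f10 encodes H1X and did not pass in either batch.

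The promoter of H1f5 is shown because the gene had the largest rise among the tested members in batch 1, and that of H4c4 because the gene did not pass in either batch. Sequences are from RefSeq (GRCm38.p6), 250 bases before to 50 after the gene's start, at chr13:21780576-21780875 on the minus strand and chr13:23581318-23581617 on the plus strand. Capitals mark matches on either strand to 4 motifs known from histone promoters: CCAAT for the CCAAT box, TATAAA for the TATA box, ATTTGCAT for the octamer and AAACACA for the H1 box.
H1f5: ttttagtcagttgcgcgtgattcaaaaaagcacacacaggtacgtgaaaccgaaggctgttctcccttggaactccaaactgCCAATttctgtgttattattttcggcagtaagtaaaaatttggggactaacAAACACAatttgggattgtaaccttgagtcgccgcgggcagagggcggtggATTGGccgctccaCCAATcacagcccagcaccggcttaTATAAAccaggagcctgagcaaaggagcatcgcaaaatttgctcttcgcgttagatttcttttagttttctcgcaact
H4c4: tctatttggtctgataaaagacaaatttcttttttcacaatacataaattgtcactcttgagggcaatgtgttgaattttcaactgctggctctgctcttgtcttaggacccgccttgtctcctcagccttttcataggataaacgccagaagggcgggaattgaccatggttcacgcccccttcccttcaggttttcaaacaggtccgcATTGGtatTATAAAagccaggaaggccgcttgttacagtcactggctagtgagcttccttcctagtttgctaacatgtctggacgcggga
The H1f5 window holds 3 CCAAT matches, 1 TATAAA and 1 AAACACA, and the H4c4 window 1 CCAAT and 1 TATAAA. Over the 50 members with a RefSeq promoter, CCAAT was found in 80% (37.9% of 27025 promoters of this length), TATAAA in 58% (14.2%) and ATTTGCAT in 18% (1.75%). CCAAT was found in 11 of 11 H2A, 12 of 12 H2B, 9 of 9 H3 and 3 of 11 H4 promoters. ATTTGCAT was found in 4 H2A and 5 H2B promoters and in none of the H1, H3 and H4 promoters, and AAACACA in 57.1% of the H1 promoters (7.14% of all promoters). These matches describe the sequence. The motifs were picked after the values had been seen and were not tested against the changes.

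In the H2A family, 3 of 11 genes rose in batch 1 and none fell, with a median log2 change of 1.17. H2ac15 had 6.84, 11.2, 12.8 and 15.0 CPM in batch 1 bleomycin lungs, 25.2, 17.8, 4.31 and 6.44 CPM in batch 2 bleomycin lungs and 2.60, 5.57, 2.96, 4.4 and 2.72 CPM in saline lungs. The batch 1 groups did not overlap, and batch 2 replicate 3 lay inside the saline range. The log2 change was 1.67 ± 0.45 in batch 1 (SE, edgeR adjusted p = 0.0128) and 1.89 ± 0.46 in batch 2 (SE, edgeR adjusted p = 0.00784).

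H2ac4 and H2ac22 also rose in batch 1, by log2 changes of 1.45 ± 0.48 and 2.00 ± 0.69 (SE, edgeR adjusted p = 0.0310 and 0.0381). H2ac22 is counted thinly, at 2.37 ± 1.06 CPM in batch 1 bleomycin lungs, 1.99 ± 1.59 CPM in batch 2 bleomycin lungs and 0.585 ± 0.390 CPM in saline lungs (SD, n = 4, 4 and 5). Without single libraries the adjusted p ran to 0.0953 for H2ac4 and 0.0966 for H2ac22. H2ac20 showed no such difference in batch 1. It had 8.28, 13.3, 19.5 and 23.5 CPM in batch 1 bleomycin lungs, 35.4, 25.3, 20.9 and 16.8 CPM in batch 2 bleomycin lungs and 14.1, 22.7, 15.8, 14.5 and 15.1 CPM in saline lungs, and the groups overlapped in both batches. Its log2 change was -0.02 ± 0.28 in batch 1 (SE, edgeR adjusted p = 0.970), with a sign that turned in 6 of the alternatives tried. Some of these alternatives also drew on batch 2 libraries.

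H2B was the largest family, with 14 tested genes, of which 5 rose and 1 fell in batch 1 (median log2 change 1.07). H2bc13 had 2.14, 3.33, 3.86 and 2.28 CPM in batch 1 bleomycin lungs, 4.48, 3.88, 1.52 and 1.76 CPM in batch 2 bleomycin lungs and 1.07, 1.16, 0.365, 0.503 and 0.147 CPM in saline lungs. All bleomycin libraries of both batches lay above all saline libraries. Its log2 change was 2.18 ± 0.51 in batch 1 (SE, edgeR adjusted p = 0.00398) and 2.18 ± 0.52 in batch 2 (SE, edgeR adjusted p = 0.00526). H2bc11 had 1.61, 5.07, 6.10 and 4.79 CPM in batch 1 bleomycin lungs, 5.31, 4.69, 2.37 and 2.05 CPM in batch 2 bleomycin lungs and 1.02, 2.78, 1.31, 1.76 and 1.03 CPM in saline lungs. Batch 1 replicate 5 and batch 2 replicates 3 and 4 lay inside the saline range, and its log2 change was 1.51 ± 0.42 in batch 1 (SE, edgeR adjusted p = 0.0130) and 1.21 ± 0.44 in batch 2 (SE, edgeR adjusted p = 0.0474). The batch 2 call of H2bc11 held in 4 of the 13 fits without a single library, and its adjusted p ran to 0.149.

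H2bc3, H2bc14 and H2bc15 rose in batch 1 by log2 changes of 1.08 ± 0.35, 1.63 ± 0.56 and 1.21 ± 0.44 (SE, edgeR adjusted p = 0.0270, 0.0380 and 0.0496). Without single libraries the adjusted p of these genes ran to 0.111, 0.105 and 0.121, H2bc15 being at 0.0596 without saline replicate 2. H2bc4 and H2bc6 differed less than their replicates did. H2bc4 averaged 26.8 ± 8.30 CPM in batch 1 bleomycin lungs, 31.7 ± 3.36 CPM in batch 2 bleomycin lungs and 30.5 ± 6.38 CPM in saline lungs (SD, n = 4, 4 and 5), and H2bc6 17.3 ± 2.39, 17.7 ± 3.88 and 19.5 ± 3.73 CPM in the same groups. Neither passed in batch 1 or batch 2.

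H2bc21, an H2B variant gene known in mice for its role in olfactory neurons, went the other way. It had 5.93, 3.33, 4.88 and 2.84 CPM in batch 1 bleomycin lungs, 2.32, 3.47, 3.89 and 4.39 CPM in batch 2 bleomycin lungs and 9.21, 5.57, 5.87, 6.54 and 9.12 CPM in saline lungs. In batch 1 replicate 5 reached the saline range, and in batch 2 all libraries were below all saline libraries. It fell in both batches, with a log2 change of -0.78 ± 0.27 in batch 1 (SE, edgeR adjusted p = 0.0392, to 0.110 without single libraries) and -1.04 ± 0.29 in batch 2 (SE, edgeR adjusted p = 0.0121). Its annotated transcript has a 3′ UTR of 2192 bases with no stem-loop match.

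Among the 50 members with a RefSeq promoter window, an H2A and an H2B gene lie head to head in 5 cases, so that their windows overlap on opposite strands. The 6 members without a window, H2bc4 and H2bc21 among them, could not be searched for partners. H2ac15 and H2bc15 share 263 bases of window and both rose in batch 1. H2bc13 and H2ac13 share 272 bases, and their log2 changes in batch 1 were 2.18 ± 0.51 and 0.83 ± 0.45 (SE), of which that of H2ac13 did not pass (edgeR adjusted p = 0.180). H2bc11 rose and its partner H2ac11 did not pass, at a log2 change of 1.44 ± 0.59 (SE, edgeR adjusted p = 0.0771). Of the remaining pairs, neither H2ac8 nor H2bc8 passed, and H2ac22 rose beside the untested H2bc22. In batch 2, H2ac13 missed the threshold (log2 change 1.26 ± 0.47, SE, edgeR adjusted p = 0.0523). It passed there without saline replicate 2 (log2 1.53, edgeR adjusted p = 0.0229). Whether partners differ from each other was not tested.

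**Figure D2:**
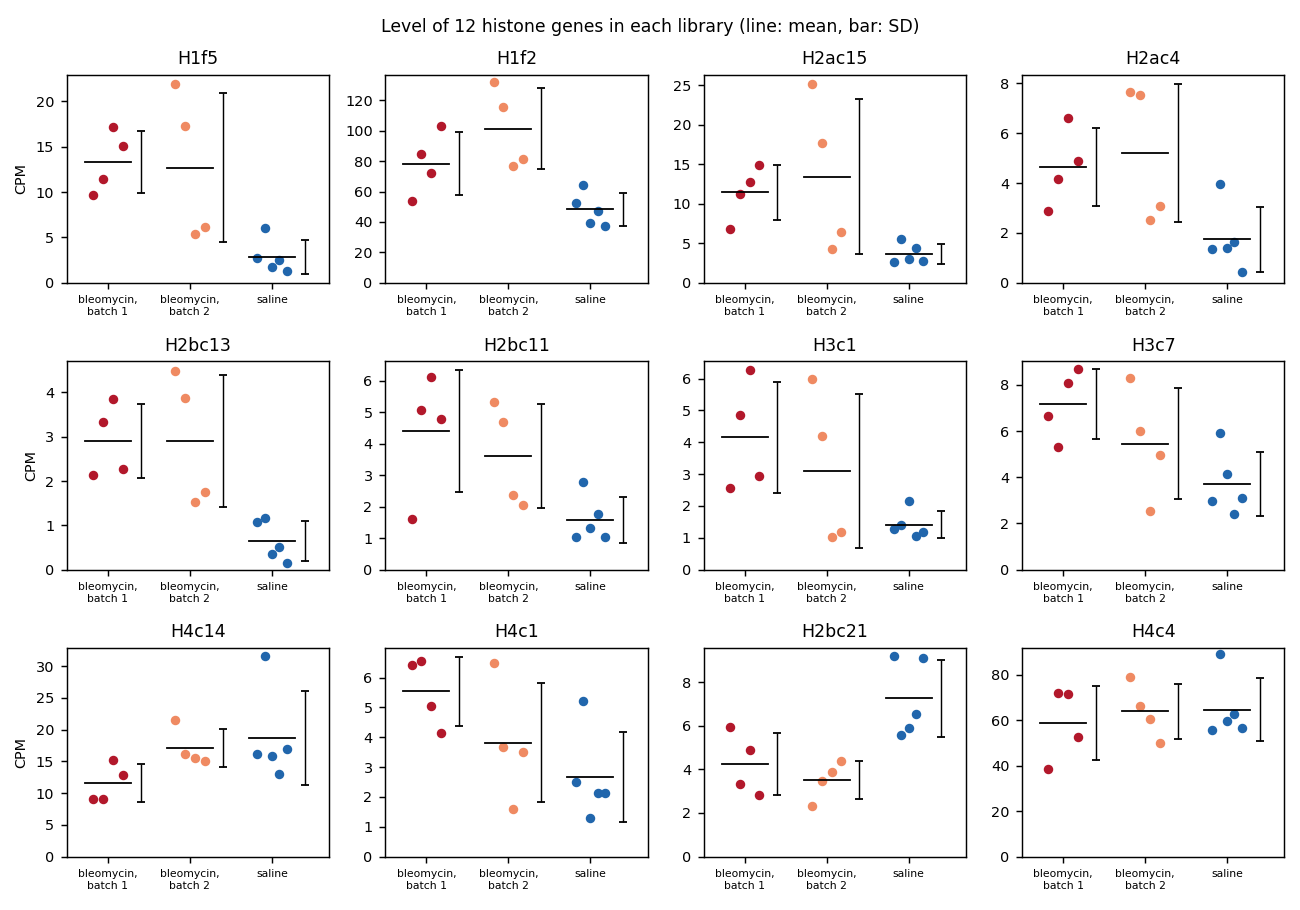
CPM of 12 histone genes in each library of batch 1 bleomycin, batch 2 bleomycin and saline lungs, with the mean as a line and the SD as a bar, each axis from 0. H1f5, H2ac15 and H2bc13 have every batch 1 bleomycin library above every saline library, H2bc21 lies lower in bleomycin lungs, and H4c4 overlaps throughout.

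All 11 H3 genes had a positive log2 change in batch 1 (median 1.14). Of these 2 passed, which is close to the 17.5% of all tested genes that were higher. H3c1 had 2.55, 4.86, 6.26 and 2.93 CPM in batch 1 bleomycin lungs, 5.98, 4.18, 1.01 and 1.17 CPM in batch 2 bleomycin lungs and 1.28, 1.39, 2.15, 1.07 and 1.18 CPM in saline lungs. All batch 1 bleomycin libraries were above all saline libraries, and in batch 2 replicates 3 and 4 lay at the saline level. Its log2 change was 1.54 ± 0.47 in batch 1 (SE, edgeR adjusted p = 0.0202) and 1.09 ± 0.49 in batch 2 (SE, edgeR adjusted p = 0.108), where it did not pass. H3c7 rose in batch 1 as well, by 0.97 ± 0.32 (log2, SE, edgeR adjusted p = 0.0293), and did not pass in batch 2. Without single libraries the adjusted p ran to 0.0773 for H3c1 and 0.0918 for H3c7.

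H3c3 had all batch 1 bleomycin libraries above all saline libraries, at 5.63 ± 1.10 CPM in batch 1 bleomycin lungs, 4.88 ± 4.33 CPM in batch 2 bleomycin lungs and 1.57 ± 1.63 CPM in saline lungs (SD, n = 4, 4 and 5). It missed the threshold, with an edgeR adjusted p of 0.0580 at a log2 change of 1.93 ± 0.72 (SE), and passed without saline replicate 2 in batch 1 (log2 2.63, edgeR adjusted p = 0.00844) and in batch 2 (log2 2.41, edgeR adjusted p = 0.0159). H3c2, H3c4 and H3c6 did not pass in either batch, with log2 changes of 1.16 ± 0.50, 0.96 ± 0.48 and 0.73 ± 0.38 in batch 1 (SE). Without saline replicate 2, H3c2 passed in batch 1 (log2 1.55, edgeR adjusted p = 0.0229) and in batch 2 (edgeR adjusted p = 0.0401). H3c6 also passed without it in batch 1 (log2 1.06, edgeR adjusted p = 0.0229) and in batch 2 (log2 1.29, edgeR adjusted p = 0.00966), and H3c4 did not.

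The H4 genes differed among themselves. Of 12, 1 rose and 1 fell in batch 1, and the median log2 change was 0.18. H4c4 had 38.5, 71.9, 71.5 and 52.8 CPM in batch 1 bleomycin lungs, 79.0, 66.0, 60.5 and 50.1 CPM in batch 2 bleomycin lungs and 55.7, 89.1, 59.7, 62.5 and 56.3 CPM in saline lungs. The groups overlapped in both batches, and the log2 change was -0.14 ± 0.19 in batch 1 and -0.01 ± 0.20 in batch 2 (SE, edgeR adjusted p = 0.635 and 0.964). H4c3 and H4c8 did not pass either, with log2 changes of -0.34 ± 0.26 and -0.16 ± 0.20 in batch 1 (SE).

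H4c1 rose in batch 1, at 6.43, 6.56, 5.04 and 4.14 CPM in batch 1 bleomycin lungs, 6.48, 3.67, 1.61 and 3.51 CPM in batch 2 bleomycin lungs and 2.51, 5.22, 1.28, 2.14 and 2.13 CPM in saline lungs. Batch 1 replicates 7 and 8 lay below saline replicate 2 and above the other saline libraries. The log2 change was 1.10 ± 0.39 in batch 1 (SE, edgeR adjusted p = 0.0432) and 0.53 ± 0.41 in batch 2, where it did not pass (SE, edgeR adjusted p = 0.358). H4c14 fell in batch 1, at 9.06, 9.10, 15.3 and 12.8 CPM in batch 1 bleomycin lungs, 21.6, 16.1, 15.6 and 15.1 CPM in batch 2 bleomycin lungs and 16.1, 31.7, 15.8, 12.9 and 16.9 CPM in saline lungs. Batch 1 replicate 7 lay inside the saline range and saline replicate 2 far above it. The log2 change was -0.68 ± 0.24 in batch 1 (SE, edgeR adjusted p = 0.0423) and -0.12 ± 0.24 in batch 2 (SE, edgeR adjusted p = 0.749). Without single libraries the adjusted p ran to 0.104 for H4c1 and 0.124 for H4c14, and H4c14 lost its call without saline replicate 2 (log2 -0.46, edgeR adjusted p = 0.0847). H4c12 missed the threshold (log2 change 1.01 ± 0.39, SE, edgeR adjusted p = 0.0580) and passed without saline replicate 2 in batch 1 (log2 1.30, edgeR adjusted p = 0.0163) and in batch 2 (log2 1.38, edgeR adjusted p = 0.0144).

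Summed over each family, H3 genes had 52.8 ± 11.2 CPM in batch 1 bleomycin lungs, 49.9 ± 29.2 CPM in batch 2 bleomycin lungs and 26.2 ± 12.2 CPM in saline lungs (SD, n = 4, 4 and 5). H4 genes had 139 ± 33.0 CPM in batch 1 bleomycin lungs, 155 ± 36.5 CPM in batch 2 bleomycin lungs and 146 ± 41.3 CPM in saline lungs. The H4 sums thus overlapped in all groups. So did the H3 sums, at 38.8 to 66.1 CPM in batch 1 bleomycin, 24.5 to 80.7 CPM in batch 2 bleomycin and 16.8 to 47.5 CPM in saline libraries. As a share of all histone counts, H4 made up 20.4% to 25.0% in batch 1 bleomycin libraries, 20.4% to 26.2% in batch 2 bleomycin libraries and 28.4% to 34.0% in saline libraries, with no overlap, and saline replicate 2 was at 34.0%. H1 made up 41.4% ± 3.81 in batch 1 bleomycin lungs, 44.5% ± 1.63 in batch 2 bleomycin lungs and 36.0% ± 3.32 in saline lungs.

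**Figure D3:**
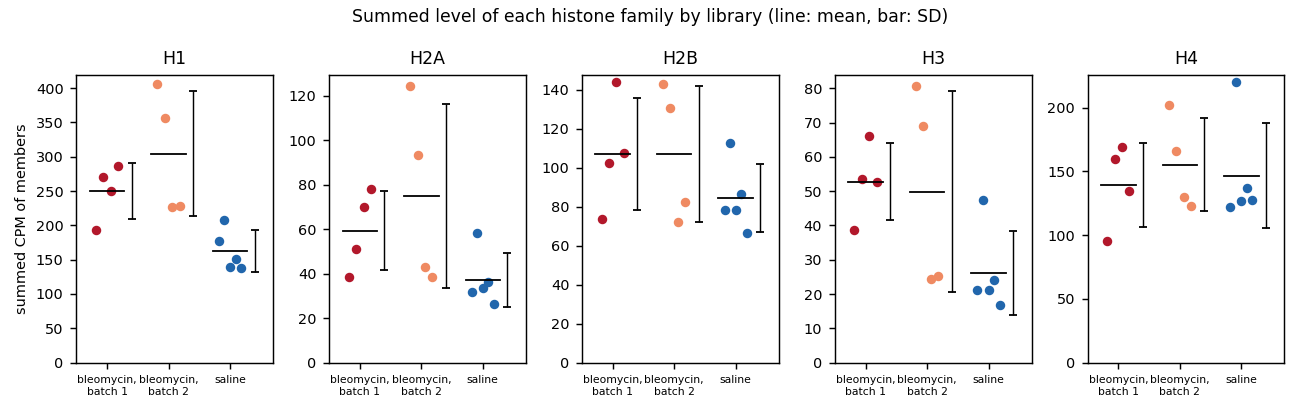
Summed CPM of the member genes of each family in every library of batch 1 bleomycin, batch 2 bleomycin and saline lungs, with the mean as a line and the SD as a bar, each axis from 0. The H1 and H3 sums average higher in both bleomycin groups. The H3 and H4 sums overlap saline in both batches, and the H1 sums overlap it in batch 1 and lie above it in batch 2. Saline replicate 2 is the highest saline library in every family.

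Members were also grouped by their annotated 3′ end, with classes and a limit of 100 bases chosen after the values had been seen, so no test was made. Of all tested genes 17.5% were higher and 13.4% lower in batch 1. The 18 tested genes whose transcript ends within 100 bases of the stem-loop had a median log2 change of 1.18 in batch 1, with 5 higher and none lower. The 18 whose annotation runs further past the stem-loop had a median of 0.77, with 4 higher and 1 lower. The 14 whose annotated transcript stops near the stop codon had a median of 1.23, with 6 higher and none lower. The 4 with a longer 3′ UTR and no stem-loop match, H1f0, H1f10, H2bc4 and H2bc21, had a median of 0.12, with 1 higher and 1 lower. The genome build of this annotation differs from the mm39 of the counts, and which transcripts the counts used is not given in the sources used here.

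**Figure D4:**
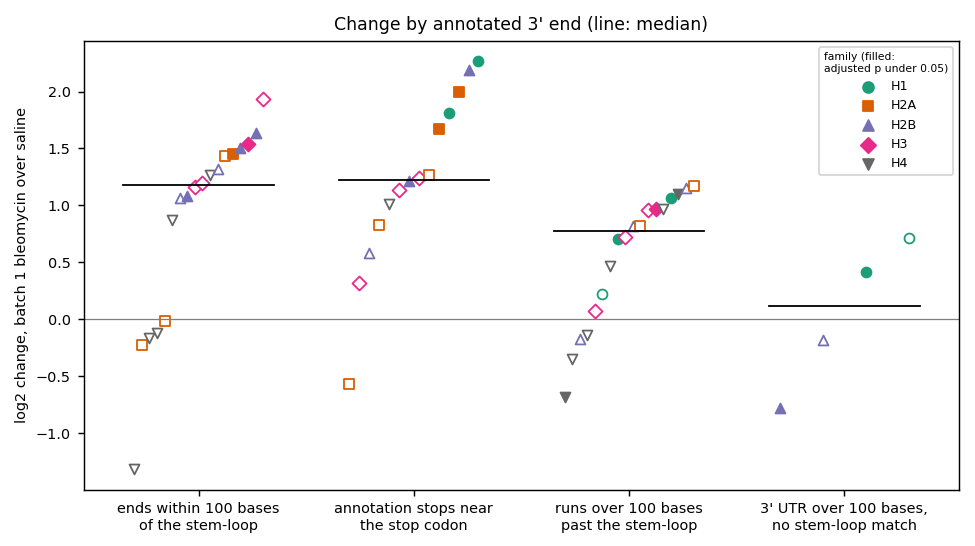
Log2 change in batch 1 bleomycin over saline of 54 tested histone genes by annotated 3′ end, with 1 point a gene, the marker showing the family and the line the median of the class. The medians are 1.18, 1.23, 0.77 and 0.12 from left to right, and the classes overlap.

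Mki67, a marker of cycling cells, had 117.9, 130.2, 172.3 and 150.8 CPM in batch 1 bleomycin lungs, 162.9, 133.4, 52.2 and 59.2 CPM in batch 2 bleomycin lungs and 27.9, 37.1, 27.8, 28.7 and 24.3 CPM in saline lungs. Every bleomycin library was above every saline library, and replicate 8, at 150.8 CPM, lay within the bleomycin range. The log2 change was 2.30 ± 0.31 in batch 1 (SE, edgeR adjusted p = 0.000265) and 1.81 ± 0.31 in batch 2 (SE, edgeR adjusted p = 0.00138). Without replicate 8, 6 histone genes were called in batch 1, all higher, and without saline replicate 2, 23 were, 22 of them higher.

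Within batches, the histone level followed Mki67. Over the 8 bleomycin libraries, centred within batch, the mean log2 CPM of the 55 members had Pearson's r of 0.959 and Spearman's rho of 1 with Mki67, and r was 0.940 without the 2 libraries farthest from the Mki67 median, batch 2 replicates 1 and 3. All these points share library depth and scaling, so the relation is a description. For single members r had a median of 0.76, with 53 of 55 above 0, beside a median of 0.00292 over all tested genes. H1f5 at 0.997 and H2ac10 at 0.995 were highest, and H2bc21 at -0.56 and H3c15 at -0.91 lowest. In batch 2 both replicates 1 and 2 were above both replicates 3 and 4 for 47 of 55 members (85.5%), against 18.4% of all tested genes, and Mki67 showed the same order. In batch 1 replicate 5 was the lowest library for 39 members (70.9%), against 34.1% of all tested genes, and was also lowest in Mki67. These orders of libraries were picked after the values had been seen and were not tested. Members that share sequence are not independent of each other.

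**Figure D5:**
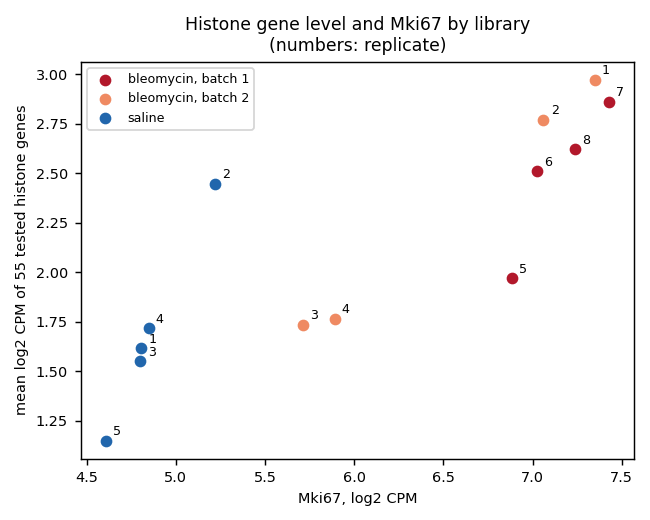
Mean log2 CPM of the 55 tested histone genes against log2 CPM of Mki67 in each of the 13 libraries, numbered by replicate. Batch 2 replicates 3 and 4 lie below the other bleomycin libraries on both axes, and saline replicate 2 has a histone level just below that of bleomycin replicate 6 at a lower Mki67.

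The genes most like the histone level over all 13 libraries, by Pearson's r of log2 CPM, were Polq (0.952), Stil (0.943), Ninj1 (0.938), Kif20a (0.931) and Ccdc63 (0.926). Polq encodes DNA polymerase theta, and Stil and Kif20a act in centriole formation and in cell division. Polq did not pass in batch 1 or batch 2 (edgeR adjusted p = 0.247 and 0.208). Ccdc63 was near the floor, averaging 0.886 CPM in batch 1 bleomycin, 0.840 in batch 2 bleomycin and 0.196 in saline libraries.

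Related genes were counted from lists chosen with earlier results known. Beside them, 17.5% of all tested genes were higher and 13.4% lower in batch 1, and 15.7% and 13.2% in batch 2. Of 29 S phase genes, 22 rose and none fell in batch 1 (median log2 change 1.06), among them Mcm3 and Mcm5 of the replicative helicase and Rrm1 of ribonucleotide reductase (log2 1.44, 1.75 and 1.06). Of 24 G2 and M phase genes all 24 rose (median 2.15), among them Cdk1 (2.87), the kinase of mitotic entry. Of 22 histone chaperones, 8 rose and none fell, among them Nasp, which binds H1 and H3, and Chaf1a of chromatin assembly factor 1 (log2 0.65 and 0.71). Of 20 genes of histone mRNA 3′ processing and transcription, 5 rose and none fell. Slbp, the stem-loop binding protein, was among them at a log2 change of 0.47 ± 0.14 (SE, edgeR adjusted p = 0.0193), and Npat, which activates histone gene transcription, did not pass (log2 0.15, edgeR adjusted p = 0.396). In batch 2, 14 S phase, 21 G2 and M phase, 12 chaperone and 3 processing and transcription genes rose. Of these lists only the chaperones held genes that fell there, 2 of them. The lists are not separate sets. Mcm2 is in both the S phase and the chaperone list, and Slbp in both the S phase and the processing list. Mki67 is itself in the G2 and M phase list.

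Of 9 replacement variants outside the symbol rule, 3 rose and 1 fell in batch 1. H2az1 (H2A.Z), Macroh2a1 and Cenpa, the H3 variant of centromeres, rose by log2 changes of 0.73, 0.47 and 1.34. Of 15 p53 target genes, 4 rose and 1 fell, with Cdkn1a, the cell cycle inhibitor p21, at 0.53. Of 11 tested short or non-polyadenylated RNAs outside the histones, 1 rose and 7 fell in batch 1, among them the minor spliceosome RNAs Rnu11 and Rnu12 (log2 -2.02 and -1.88). In batch 2, 4 of these variants rose and none fell, 3 p53 targets rose and 1 fell, and 1 short RNA rose and 3 fell.

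Immune cell markers were counted as well, and their relation to the histone level across libraries was not tested. All 7 monocyte and macrophage markers rose in batch 1, with a summed level of 341 to 624 CPM in batch 1 bleomycin, 426 to 637 CPM in batch 2 bleomycin and 138 to 150 CPM in saline libraries. All 5 B cell markers rose in batch 1 (43.4 to 85.8 CPM in batch 1 bleomycin, 39.9 to 96.2 CPM in batch 2 bleomycin and 12.4 to 30.6 CPM in saline libraries). So did 3 of 4 plasma cell, 2 of 5 T cell and 2 of 5 neutrophil markers. In batch 2, all 7 monocyte and macrophage, 4 of 5 B cell and 4 of 4 plasma cell markers rose. Only 1 of 5 T cell and 0 of 5 neutrophil markers rose there. Lung markers were present, with 2 of 3 alveolar type 2 and 3 of 3 alveolar type 1 markers lower in batch 1. In batch 2, 0 of 3 alveolar type 2 and 1 of 3 alveolar type 1 markers were lower. The part of these cells in the histone changes was not tested. In such bulk samples, fewer cells of a type and less RNA per cell cannot be told apart.

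Between the bleomycin batches 1 member of 55 differed (1.82%, with 1.68% of all tested genes called), which is close to the background. That member was lower in batch 2 (1.13% of all tested genes were), and 0 of 55 were higher (0.547% of all tested genes were; 3 members at an unadjusted p under 0.05 in edgeR). H2bc24 had 14, 23, 39 and 31 counts in batch 1 bleomycin libraries, 0 in all 4 batch 2 bleomycin libraries and 10, 14, 35, 4 and 4 in saline libraries. Against a floor of 3 counts over the batch 2 group (0.0870 CPM), its mean was 12-fold higher in batch 1 bleomycin and 8.90-fold higher in saline libraries. The floor takes counts as independent, which they may not be where both reads of a pair are counted. Single saline libraries ran from 0.251 to 1.62 CPM, so these folds are not strict bounds. H4c17 was also low in batch 2, with 0, 2, 0 and 2 counts, beside 3, 13, 21 and 20 in batch 1 bleomycin libraries and 14, 25, 30, 26 and 12 in saline libraries. It passed in batch 2 against saline (log2 -3.47, edgeR adjusted p = 0.0102) and did not pass in batch 2 against batch 1 (log2 -2.15, edgeR adjusted p = 0.307). Many histone genes share sequence. A median of 49.3% of the 50-base stretches of a member's transcript occur in a transcript of another annotated gene, member or not. Of the members 25 are over 50%, H4c17 at 89.8% and H2bc13 at 82.8% among them. How reads that fit several copies were counted is not given in the sources used here, so counts of such members may be split between copies.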

How the data were processed

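Total RNA from 10 µm sections was made into libraries from 8 ng with a stranded total RNA kit, per the labels' protocols. The authors deposited whole-number counts per gene symbol without normalization, and the submitters' processing notes name build mm39 with cutadapt 4.4, STAR 2.7.10b and also featureCounts 2.0.3. No source used here gives the strand setting, the annotation release or the treatment of multi-mapping reads. Among counts from 1 to 10, 78.4% to 86.1% were even, so a count may hold both reads of a pair and is not an independent molecule.

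Counts were filtered with filterByExpr (20468 genes), TMM-scaled and tested in edgeR 4.0.16 (R 4.3.3) with robust quasi-likelihood fits of 3 group means. Benjamini-Hochberg adjustment ran over all tested genes, with calls at an adjusted p under 0.05. The SE of an edgeR log2 change was taken as its size over the square root of the test's F statistic. It is thus no measure of spread apart from the p-value. The biological coefficient of variation was 0.306. Log2 CPM used a prior count of 2. The test was tried on simulated data. Alternatives were DESeq2 1.42.0, limma-voom (limma 3.58.1), RLE scaling, no filter, other sample sets and single libraries left out.

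Members and lists were chosen with earlier results of these data known. Named members are, per family, the 4 with the highest mean CPM and the 3 with the lowest p in batch 1, and up to 3 genes per list by lowest p; Slbp, Npat, H1f10, H2ac8, H2ac11, H2ac13, H2bc8, H2bc14, H2bc21, H2bc22, H2bc24, H3c15 and H4c17 were named after their values were seen. Stem-loops were matched as a 6-base stem around a 4-base loop.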

Additional observations from a re-analysis of the deposited data

Results flagged for a closer look

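In 11 of 96 groups of 4 or 5 libraries, 1 library stood far from the others of its group. For normally distributed values chance does this in about 1 of 20 groups. The values used were not log-transformed and need not be normal, so that rate may not hold here. Of the 11, 8 were saline replicate 2, on the high side. It had 48.9 CPM of H1f4 (29.6 to 33.6 in the other saline libraries), 19.1 CPM of H1f3, 7.19 CPM of H1f1, 22.7 CPM of H2ac20, 4.41 CPM of H3c3, 89.1 CPM of H4c4 and 31.7 CPM of H4c14, and its histone share of counts was 0.0585%. The remaining 3 were batch 1 bleomycin replicate 7 with 7.83 CPM of H4c12, and batch 2 bleomycin replicates 2 and 1 with 22.5 CPM of H4c8 and 21.6 CPM of H4c14. These values are not independent, since they come from the same libraries.

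H2bc24 differed between the bleomycin batches, with a fitted log2 difference of -7.19 (edgeR adjusted p = 0.0255) that rests on 0 counts in batch 2 and is no bound.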

How the results depend on the processing

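Values of single named members were recomputed and set against their batch 1 values. Of these, 487 kept direction and side of the threshold, 112 lost the call, 22 gained it and 9 changed sign. The fit of all 8 bleomycin libraries and the replicate block also used batch 2 libraries, so their values are not of batch 1 alone. None of the sign changes passed the threshold. H2ac20 turned positive without a filter (0.023), with all 8 bleomycin libraries and no batch term (0.30), under the replicate block (0.25), and without bleomycin replicate 5 (0.20), bleomycin replicate 6 (0.068) or saline replicate 2 (0.075), with a range of -0.29 to 0.20 over the libraries left out. Without bleomycin replicate 5, H4c4 (0.022, range -0.25 to 0.022) and H4c8 (0.014, range -0.31 to 0.014) turned positive, and with replicate 8 placed in saline H1f4 turned negative (-0.085). The cause was not tested.

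In batch 1, limma-voom called 32 members (58.2%, with 34.9% of all tested genes) against 18 in edgeR (32.7%, with 30.9%). With replicate 8 placed in saline, 0 members were called in batch 1 (8 at an unadjusted p under 0.05) and 1 in batch 2, with 3.04% and 4.45% of all tested genes called, and Mki67 had a log2 change of 1.5 (edgeR adjusted p = 0.151). Between batches limma-voom called 0 (4 at an unadjusted p under 0.05) against 1 in edgeR, with 0.498% and 1.68% of all tested genes called. Leaving out single libraries gave 6 to 23 calls in batch 1 (10.7% to 41.8% of members, with 24.9% to 31.6% of all tested genes). In batch 2 it gave 8 to 23 (14.3% to 41.8%, with 21.5% to 30.9% of all tested genes). Between batches it gave 0 to 1 (0.676% to 5.28% of all tested genes). The difference in histone share ran from 0.0133 to 0.0225 percentage points (0.0177 with all). The log2 change of Mki67 ran from 2.20 to 2.38 and the relation to Mki67 from r 0.940 to 0.996. Without centring within batch r was 0.903.

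The replicate numbers do not pair the samples: same-numbered libraries correlated at -0.113, -0.349, -0.0603, -0.123 and 0.0406 in their deviations from group means. A fit with the replicate number as a block and no batch term called 12 members over both batches (21.8%, with 23.2% of all tested genes). No separate block fit was run for batch 2.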
